A study of Rattus norvegicus with 6 samples.

Results

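The circadian clock genes Clock, Per1, Per2, Per3, Cry1, Cry2, Nr1d1 and Nr1d2 and the PAR bZIP genes Dbp and Tef were followed in the mesenterial fat of newborn rats. Their probe sets were those that the platform annotation gives to exactly 1 of these 10 symbols, which selected 20 of the 31042 probe sets that are not array controls. Of the 20, 14 were bright enough to test and 6 were not, and each of the 10 genes kept at least 1 tested probe set. The whole series holds 6 Affymetrix Rat Genome 230 2.0 arrays of total RNA. The deficient group (3 arrays) comprised newborn wildtype rats of the outbred Sprague-Dawley strain whose dams were fed a diet with 0 IU of vitamin D per kg. The adequate group (3 arrays) comprised newborns of the same strain and genotype whose dams were fed 1000 IU per kg. Nothing in the labels tells whether arrays stand for separate animals or for littermates, so the p-values below cover the spread between these arrays, which may be technical. The time of day at which the tissue was taken is not given in the sources used here.

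In the mammalian clock, the proteins CLOCK and BMAL1 pair on E-box sequences and switch on the Per, Cry, Nr1d and Dbp genes. PER and CRY proteins then return to block CLOCK and BMAL1, and the REV-ERB receptors made from Nr1d1 and Nr1d2 repress Bmal1, so that the loop runs through a cycle of about a day. DBP, TEF and their relative HLF are PAR bZIP factors, named for a proline and acidic amino acid rich region beside a basic leucine zipper, and carry the rhythm to output genes through D-box sequences. In adult fat these genes cycle strongly, and the loop is known to gate lipid metabolism. In many rodent tissues the cycles are still weak around birth.

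Promoter windows are shown for the members with a tested probe set whose groups did not overlap, Dbp and Per2, and for Tef, the other PAR bZIP member. Each window runs from 250 bases before to 50 bases after the start of the gene, 5′ to 3′, from RefSeq on GRCr8. Capitals mark an E-box (CACGTG), an E-box variant (CACGTT), a D-box (TTATGTAA or TTATGCAA), a core of the element read by REV-ERB and ROR receptors (TAGGTCA or TGGGTCA) or a cAMP response element (TGACGTCA), each searched on both strands.
Dbp, chr1:105312006-105312305, plus strand: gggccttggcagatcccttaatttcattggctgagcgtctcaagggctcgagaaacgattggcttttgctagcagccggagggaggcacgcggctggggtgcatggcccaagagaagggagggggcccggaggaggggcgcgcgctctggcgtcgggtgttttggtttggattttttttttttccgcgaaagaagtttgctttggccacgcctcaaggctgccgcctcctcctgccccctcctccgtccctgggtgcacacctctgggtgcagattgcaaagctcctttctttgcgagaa
Per2, chr9:99496944-99497243, minus strand: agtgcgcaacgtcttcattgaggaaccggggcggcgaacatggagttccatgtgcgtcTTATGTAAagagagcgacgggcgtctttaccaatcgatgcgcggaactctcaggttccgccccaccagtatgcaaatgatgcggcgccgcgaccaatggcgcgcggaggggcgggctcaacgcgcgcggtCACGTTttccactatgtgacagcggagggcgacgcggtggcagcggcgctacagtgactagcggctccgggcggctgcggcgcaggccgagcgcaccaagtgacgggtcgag
Tef, chr7:115206577-115206876, plus strand: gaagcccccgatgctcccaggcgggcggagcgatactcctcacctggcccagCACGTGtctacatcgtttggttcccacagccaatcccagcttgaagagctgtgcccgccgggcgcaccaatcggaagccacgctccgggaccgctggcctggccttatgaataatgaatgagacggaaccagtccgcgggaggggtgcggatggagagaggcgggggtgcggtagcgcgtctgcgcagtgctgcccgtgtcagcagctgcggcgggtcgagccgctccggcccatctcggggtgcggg
The Dbp window held no match to these letters. In mouse, the known CLOCK binding sites of Dbp lie partly in its introns, outside such a window. The Per2 window held a D-box with its first base at -192 and the E-box variant at -62, counted from the start of the gene. The Tef window held an E-box at -198. Of the 10 genes, 9 had a window in the table (11 windows, Cry1 is named only). The E-box was found for 2 of the 9, Nr1d1 and Tef (2 of the 11 windows), and in 6.42% of all 33469 windows. The E-box variant was found for 3, Cry2, Nr1d1 and Per2 (3 of the 11 windows), against 4.83% of all windows. The D-box was found for Per2 (1 of the 11 windows), against 1.73%. The receptor element (6.60% of all windows) and the cAMP element (1.83%) were found for 0 of the 9. A match is a description of letters and not a binding site.

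Values are log2 of the deposited signal, an intensity on a scale common to the 6 arrays, and a change is deficient minus adequate. Probe sets with a mean log2 signal under 6.46 (a signal of 88.2) were not tested, and levels of different probe sets were not set against each other. Among the 6 arrays, deficient arrays 1 and 2 formed a pair of their own. They scored 43.1 and 46.4 on a first principal component that held 49.5% of the variance, where the remaining 4 arrays scored -26.2 to -18.5. The spiked bacterial hybridisation controls of this pair read 5.99 and 8.12 times the adequate mean, against 0.955 on deficient array 3, and the beta-actin 3′ over 5′ ratio was 6.80 to 7.56 on them and 2.35 to 4.81 on the other arrays. Y-linked signal was low on adequate array 1 alone, with a mean log2 of 6.88 against 10.6 to 11.3 elsewhere. Of 9 adipocyte markers, 5 were tested and Adipoq, Cidec, Plin1 and Pparg were below the filter. The summed adipocyte signal was 3844 to 6157 on the deficient and 4963 to 5294 on the adequate arrays, and these groups overlapped.

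Among the 14 tested probe sets, Dbp alone had an unadjusted p under 0.05, and it was lower in the deficient group. None passed the adjusted threshold of 0.05. With limma, 0 of 18625 probe sets passed (0.0%), although 3614 did without deficient array 3, 0 of the clock probe sets among them. In the fit of all 6 arrays, 14.2% of all probe sets had an unadjusted p under 0.05, against 7.14% of the 14 (1 probe set). Lower calls of that kind made up 8.18% of all tested probe sets. The groups did not overlap for 2 of the 14, Dbp and Per2, against 17.4% of all tested probe sets, of which 10.8% were lower and 6.55% higher in the deficient group. Of the 14 changes, 9 were above 0 and 5 below, with a median of 0.16, and 9 were smaller than their standard error. Over all tested probe sets the median was -0.049, and 44.7% of changes were above 0.

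**Figure D1:**
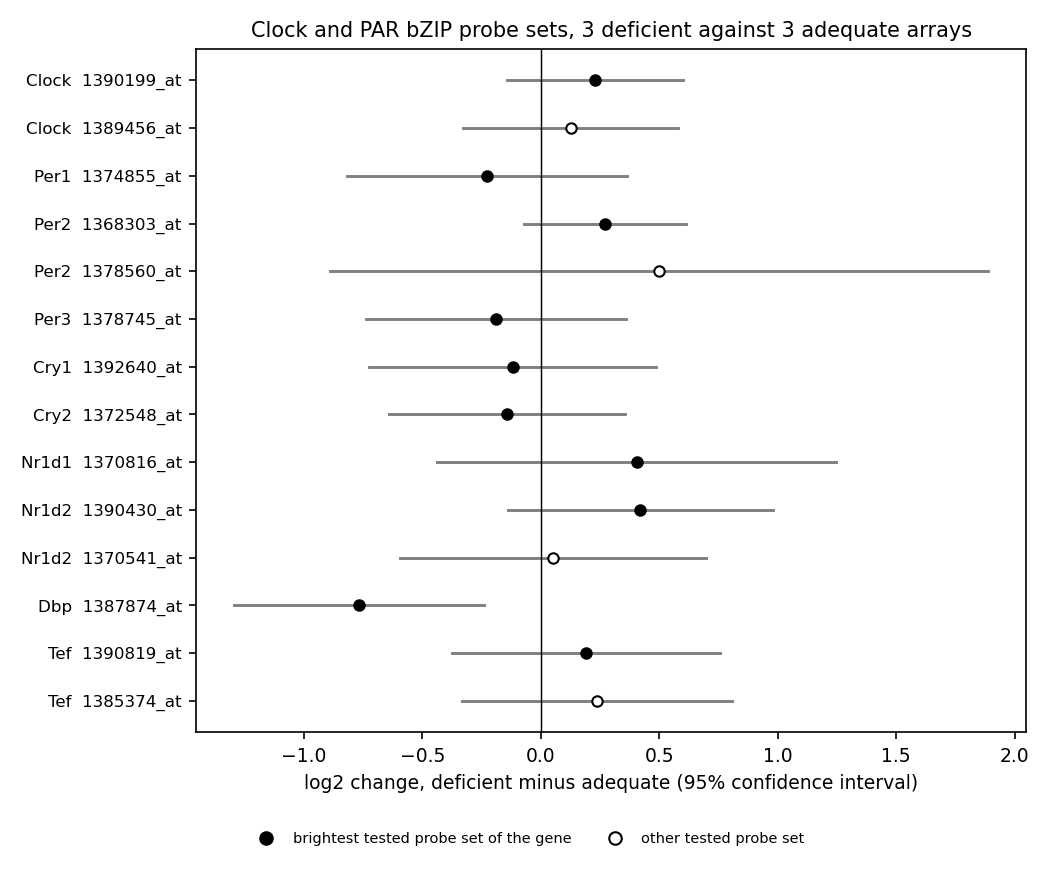
Change in log2 signal, deficient minus adequate, for the 14 tested probe sets of the 10 genes, with 95% confidence intervals from limma (3 arrays a group). The interval of Dbp, -1.30 to -0.24, lies below 0, and the other 13 intervals include 0.

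Clock encodes one partner of the activating pair, a basic helix-loop-helix protein. Its brightest probe set, 1390199_at, read 9.58, 9.74 and 9.74 on the deficient arrays and 9.45, 9.66 and 9.26 on the adequate arrays. Adequate array 2 lay above deficient array 1, so the groups overlapped. The group means were 9.68 ± 0.095 in the deficient and 9.46 ± 0.20 in the adequate group (SD, n = 3 each), a change of 0.23 ± 0.17 (SE) with a 95% interval of -0.14 to 0.60 and an adjusted p of 0.502 by limma. The second tested probe set, 1389456_at, had a change of 0.13 ± 0.20 (SE), with deficient array 3 highest at 9.66 and deficient array 1 lowest at 9.04. The remaining Clock probe sets, 1380098_at and 1369168_a_at, had mean log2 signals between 1.28 and 5.49 in each group and were not tested. Values at that brightness spread widely. Probe set 1369168_a_at read 5.59 on deficient array 1 and 0.86 to 2.37 on the others.

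Per1, Per2 and Per3 encode the period proteins of the repressing complex, and Per1 is also an immediate early gene that answers cAMP and glucocorticoid signals. Per1 read 11.06, 11.56 and 10.72 on the deficient arrays and 11.30, 10.88 and 11.84 on the adequate arrays. Both groups spread widely and overlapped, and the lowest of the 6 values was on deficient array 3 and the highest on adequate array 3. The change was -0.23 ± 0.27 (SE), with a 95% interval of -0.82 to 0.37.

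Per2 was read by 2 tested probe sets. Its brightest probe set, 1368303_at, read 10.48, 10.72 and 10.77 on the deficient arrays and 10.26, 10.43 and 10.46 on the adequate arrays. The groups did not overlap, although deficient array 1 lay close above adequate array 3. The change was 0.27 ± 0.15 (SE), a fold of 1.21, with a 95% interval of -0.069 to 0.61, an unadjusted p of 0.107 and an adjusted p of 0.404 by limma. The dimmer tested probe set of Per2, 1378560_at, had 4.51 on adequate array 1 and 6.35 to 7.29 on the other 5 arrays, so its change of 0.50 ± 0.63 (SE) turned to -0.40 without adequate array 1. Its adequate mean of 6.31 lay under the filter's cutoff and no fold is given.

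Per3 read 8.07, 8.45 and 8.91 on the deficient arrays and 8.39, 8.67 and 8.94 on the adequate arrays, a change of -0.19 ± 0.25 (SE). The 3 deficient values lay almost as far apart as all 6 values together. The other Per3 probe set, 1388239_at, was below the filter, at 3.19 to 6.16.

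The cryptochromes Cry1 and Cry2 hold the repressing complex on CLOCK and BMAL1. Cry1 read 9.06, 9.58 and 10.24 on the deficient arrays and 9.62, 10.03 and 9.59 on the adequate arrays. Both the lowest and the highest of the 6 values were in the deficient group, whose SD was 0.59 against 0.24 in the adequate group (n = 3 each). The change was -0.12 ± 0.27 (SE), with a 95% interval of -0.72 to 0.48. Deficient array 3, a single array, lay 0.50 above the adequate mean. Cry2 read 9.32, 9.82 and 9.87 on the deficient arrays and 9.38, 10.02 and 10.03 on the adequate arrays, and the change was -0.14 ± 0.23 (SE). In both groups array 1 was the low one. The second Cry2 probe set, 1369446_at, was at 2.08 to 3.47 and was not tested.

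Nr1d1 and Nr1d2 encode the heme-binding receptors REV-ERB alpha and beta, which repress Bmal1 and lipid genes. Nr1d2 was read by 2 tested probe sets. The brighter, 1390430_at, read 10.10, 10.61 and 11.11 on the deficient arrays and 9.84, 10.38 and 10.32 on the adequate arrays. Deficient array 1 lay inside the adequate range and the other deficient arrays above it, and the change was 0.42 ± 0.25 (SE), a fold of 1.34, with a 95% interval of -0.14 to 0.98 and an adjusted p of 0.426 by limma. The size rested on single arrays. It was 0.17 without deficient array 3, 0.25 without adequate array 1 and 0.67 without deficient array 1, the last with an unadjusted p of 0.0177 by limma. The other tested probe set of Nr1d2, 1370541_at, had the same array as its highest, at 9.83, but a change of 0.052 ± 0.29 (SE). The third Nr1d2 probe set, 1370540_at, was at 2.48 to 4.87, below the filter.

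Nr1d1 had 1 probe set, which at a mean of 6.48 passed the filter narrowly. It read 6.12, 7.503 and 6.43 on the deficient arrays and 5.86, 6.41 and 6.56 on the adequate arrays. The change of 0.41 ± 0.38 (SE) rested on deficient array 2, without which it was -0.0047. Its adequate mean of 6.28 lay under the cutoff, so no fold is given. The gene overlaps the 3′ end of Thra on the opposite strand in RefSeq.

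Dbp had the lowest unadjusted p of the 10 genes. It is a D-box activator whose daily swings are among the widest of the clock outputs in adult rodent tissues. In linear signal it read 122, 86.6 and 102 on the deficient arrays and 169, 169 and 185 on the adequate arrays. Every deficient array lay below every adequate array, and the adequate values were close together. In log2 signal the means were 6.68 ± 0.25 in the deficient and 7.44 ± 0.073 in the adequate group (SD, n = 3 each). The change was -0.77 ± 0.24 (SE), a fold of 0.587 with a 95% interval of 0.408 to 0.847. The unadjusted p was 0.00867 and the adjusted p 0.344 by limma, so Dbp did not pass over all probe sets. That adjusted value was shared with other probe sets, among them that of Nfil3, a gene outside the 10. The signal was dim, with deficient array 2 at 6.44, just under the filter's cutoff. Deficient array 3 by itself differed from the adequate mean by -0.78, a value of 1 array with no spread of its own. The change was -0.75 ± 0.33 (SE) in a fit with the spiked hybridisation controls as a covariate. With array weights, which gave deficient array 3 the lowest weight (0.262), the adjusted p was 0.0321, in a fit that called 3462 probe sets (18.6%).

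Markers of other cell types were read beside Dbp. The summed signal of 7 smooth muscle markers was 107950, 112379 and 73142 on deficient arrays 1, 2 and 3. On the adequate arrays it was 58853 to 71594, so the groups did not overlap, but deficient array 3 lay close above the adequate range. The high sums were on deficient arrays 1 and 2, the pair that stands apart. Of the 7, 3 were higher and 1 lower at an unadjusted p under 0.05. Over all 18625 tested probe sets, 1123 were higher and 1524 (8.18%) lower by that rule. The sum of 7 lymphocyte markers was 1453 to 2543 on the deficient and 1709 to 3446 on the adequate arrays. All 6 tested had changes below 0, 2 of them at an unadjusted p under 0.05. The sum of 8 macrophage markers was 4624 to 7096 on the deficient and 6512 to 7467 on the adequate arrays. Of the 8, 6 had changes below 0, 1 of them at an unadjusted p under 0.05. Adequate array 3 had the highest sums of 6 hepatocyte markers (5714, against 1069 to 2599 on the other arrays) and of 6 intestinal epithelium markers (2487, against 170 to 536), and it also had the highest Dbp, Per1, Per3 and Cry2. The gut markers Fabp1, Fabp2, Krt20 and Vil1 were below the filter. None of these lists was at 0 on any array, and their part in these values was not tested. In such bulk tissue, fewer cells of a type and less RNA per cell cannot be told apart.

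Tef, the second PAR bZIP member, did not share the Dbp pattern. Its brightest probe set, 1390819_at, read 8.33, 8.68 and 9.06 on the deficient arrays and 8.28, 8.95 and 8.26 on the adequate arrays. The groups overlapped, with a change of 0.19 ± 0.26 (SE). Probe set 1385374_at had a change of 0.24 ± 0.26 (SE), and 1369919_at, at 5.21 to 5.77, was not tested.

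**Figure D2:**
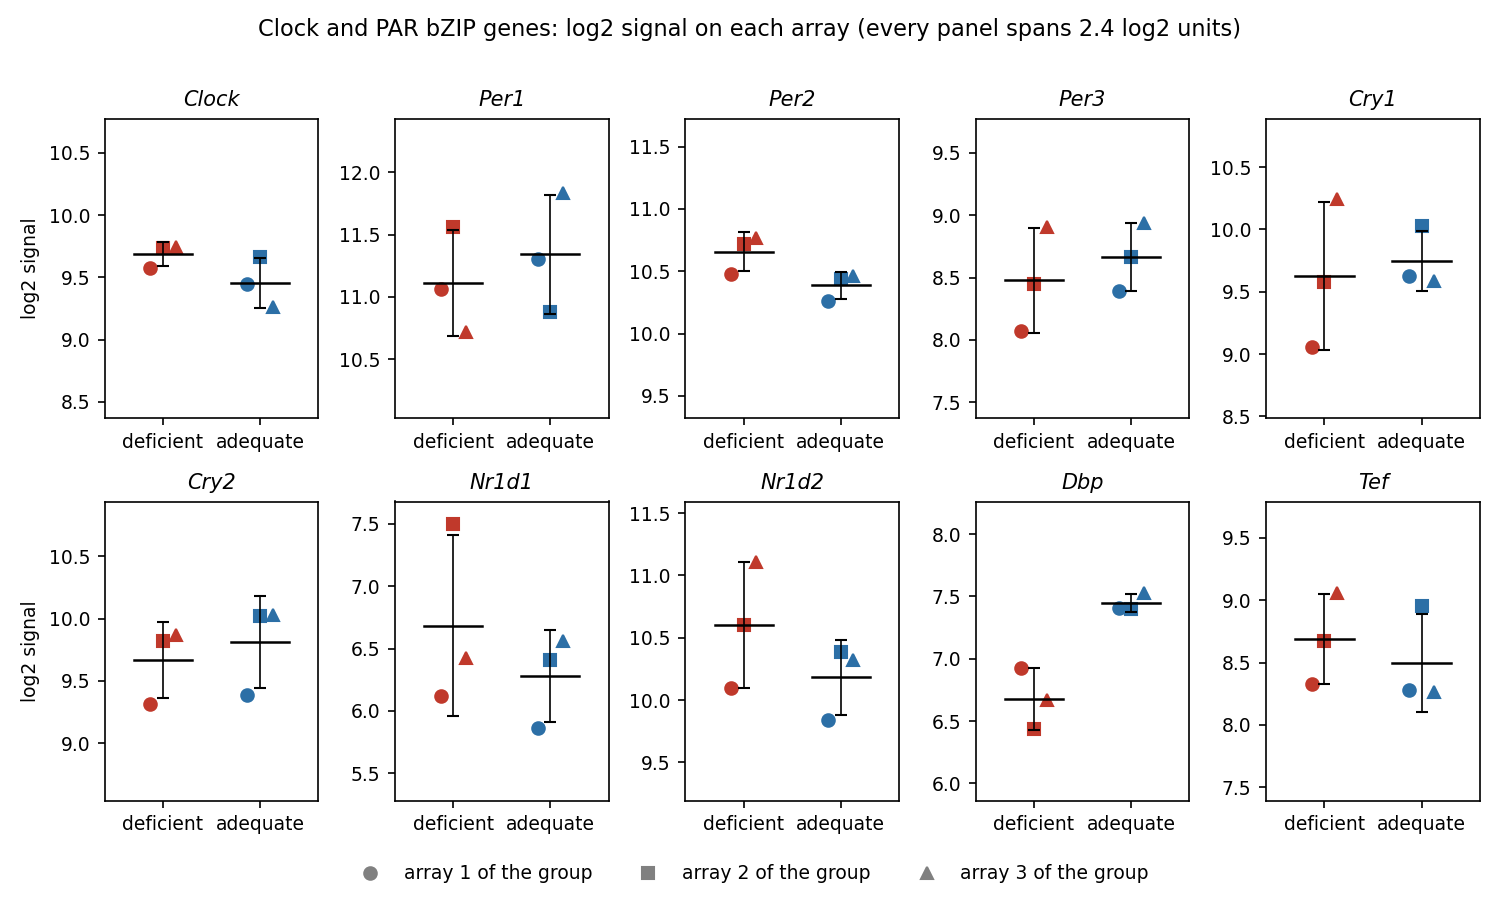
Log2 signal of each gene's brightest probe set on the 3 deficient (red, left) and 3 adequate (blue, right) arrays, with the mean (line) and SD (bar) of each group, and the same height of scale in every panel. Dbp and Per2 are the panels without overlap, Dbp lower and Per2 higher in the deficient group, and Cry1, Nr1d2 and Tef share deficient array 3 as their highest array.

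Much of the variation lay between arrays of a group. Among the brightest probe sets of the 10 genes, 7 were highest in the deficient group on deficient array 3 (Clock, Per2, Per3, Cry1, Cry2, Nr1d2 and Tef) and 8 were lowest on deficient array 1. Over all 6 arrays, deficient array 3 held the highest value of 5 genes and the lowest of Per1. In the adequate group, array 3 was highest for 6 genes and array 2 for 4 (Clock, Cry1, Nr1d2 and Tef). Adequate array 3 was the lowest for Clock, Cry1 and Tef. Dbp was the only one of the 10 with its highest deficient value on deficient array 1.

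The 2 arms of the clock were set against each other on each array as log2 signal minus the adequate mean. Clock stood at 0.12, 0.28 and 0.29 on the deficient arrays and at -0.010, 0.21 and -0.20 on the adequate arrays. The mean of Per1, Per2, Per3, Cry1, Cry2 and Dbp stood at -0.41, -0.14 and -0.037 on the deficient arrays and at -0.17, 0.0064 and 0.16 on the adequate arrays. The Per, Cry and Dbp mean minus Clock was therefore -0.53, -0.42 and -0.32 on the deficient arrays, against -0.16, -0.20 and 0.36 on the adequate arrays. These values did not overlap, with means of -0.42 ± 0.10 in the deficient and 0 ± 0.31 in the adequate group (SD, n = 3 each). Clock was read here by its brightest probe set. The other tested one, 1389456_at, stood at -0.23, 0.22 and 0.39 on the deficient arrays and -0.019, 0.22 and -0.20 on the adequate arrays. With it in place of the brightest, deficient array 1 lay above adequate array 2 in this score, and the groups overlapped. No test is given for this score, since its members were chosen with earlier results known.

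Between the groups, Clock differed by 0.23, the Per and Cry mean by -0.082 and Dbp by -0.77. Dbp stood at -0.52, -1.01 and -0.78 on the deficient arrays and between -0.043 and 0.084 on the adequate arrays. The Per and Cry mean was -0.39, 0.036 and 0.11 on the deficient arrays and -0.20, 0.016 and 0.18 on the adequate arrays, so the groups overlapped. Without Dbp the difference between the arms was -0.51, -0.25 and -0.18 on the deficient arrays and -0.19, -0.19 and 0.38 on the adequate arrays, and these overlapped. Adequate array 3, with Clock low and Per1 high, was the only array on which the Per, Cry and Dbp mean lay above Clock. Leaving that array out gave an arm difference of -0.24 in place of -0.42.

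**Figure D3:**
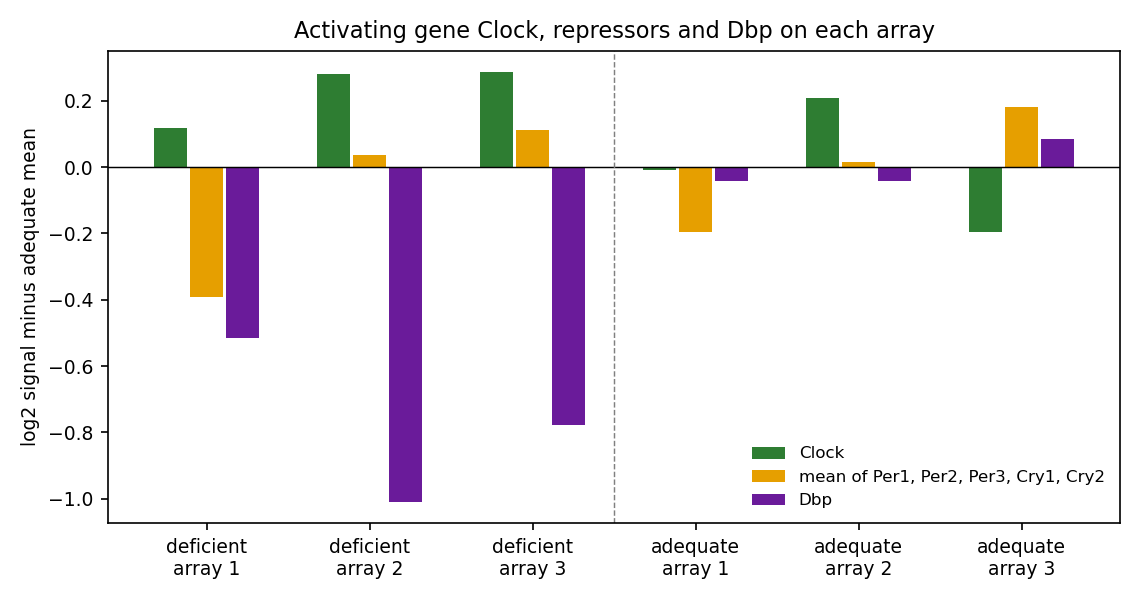
Log2 signal minus the adequate mean for Clock (green), the mean of the 5 Per and Cry genes (orange) and Dbp (purple) on each array, brightest tested probe sets, deficient arrays on the left. Dbp lies at or below -0.52 on the 3 deficient arrays, while the Per and Cry mean takes values on both sides of 0 in both groups.

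A further 21 genes of the clock pathway and its common outputs were read in the same fit. Of these, 17 had a probe set with 1 symbol, 15 had a tested one, and Rorb and Bhlhe41 were below the filter. By the brightest probe set of each, 4 of the 15 had changes above 0 and 11 below, with a median of -0.21. At an unadjusted p under 0.05 there was 1, lower, and 0 passed the adjusted threshold. That was 6.67% of the 15 genes. By probe set it was 3 of the 26 tested (11.5%), against 14.2% of all tested probe sets.

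The 1 gene was Nfil3, a bZIP repressor that binds the same D-box as DBP and TEF. Nfil3 read 8.70, 8.72 and 8.78 on the deficient arrays and 9.16, 9.09 and 9.64 on the adequate arrays. The groups did not overlap, and the change was -0.56 ± 0.19 (SE), a fold of 0.676, with an unadjusted p of 0.0144 and an adjusted p of 0.344 by limma. Among fits with more than 1 array in each group, its unadjusted p was above 0.05 in these cases: without adequate array 3 (-0.39, p 0.0853 by limma) and with the hybridisation controls as a covariate (-0.54, p 0.0577). With deficient array 3 alone the change was -0.52, a value of 1 array with no spread of its own. The D-box activator Dbp and the D-box repressor Nfil3 both had lower values on every deficient array.

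Bmal1, the partner of CLOCK, read 7.14, 7.62 and 8.004 on the deficient arrays and 7.32, 7.83 and 7.21 on the adequate arrays. It overlapped between the groups, with a change of 0.13 ± 0.28 (SE), and had deficient array 3 highest, as Clock, Cry1, Nr1d2 and Tef did. Npas2, a relative of CLOCK that can take its place, had a change of 0.18 ± 0.23 (SE). Rora, an activator of Bmal1, had 0.36 ± 0.33 (SE), with its deficient mean at 6.67 and its adequate mean at 6.31. The brightest probe set of Hlf, the third PAR bZIP gene, had -0.089 ± 0.25 (SE), while its other tested probe sets had 0.35 ± 0.28 and 0.57 ± 0.28 (SE).

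Timeless, a replication fork gene, read 9.73, 9.16 and 9.10 on the deficient arrays and 9.81, 9.58 and 9.84 on the adequate arrays. Only deficient array 1 lay inside the adequate range, and the change was -0.41 ± 0.20 (SE). Bhlhe40, which encodes the E-box repressor DEC1, had -0.44 ± 0.31 (SE). The casein kinases Csnk1d and Csnk1e, which mark PER proteins for breakdown, had -0.25 ± 0.16 and -0.23 ± 0.19 (SE). Wee1, a cell cycle kinase under clock control in liver, had opposite signs in its 2 probe sets, -0.42 ± 0.23 (SE) in the brighter and 0.50 ± 0.20 (SE) in the other. Usp2, a deubiquitinase that cycles in many tissues, likewise had -0.065 ± 0.26 (SE) in the brighter and 0.57 ± 0.24 (SE) in the other. Usp2 and the second probe set of Wee1 are named after their values were seen. The unadjusted p of the second probe sets was 0.0321 for Wee1 and 0.0386 for Usp2, and it was above 0.05 under 7 of 18 alternatives for Wee1 and 9 of 17 for Usp2.

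**Figure D4:**
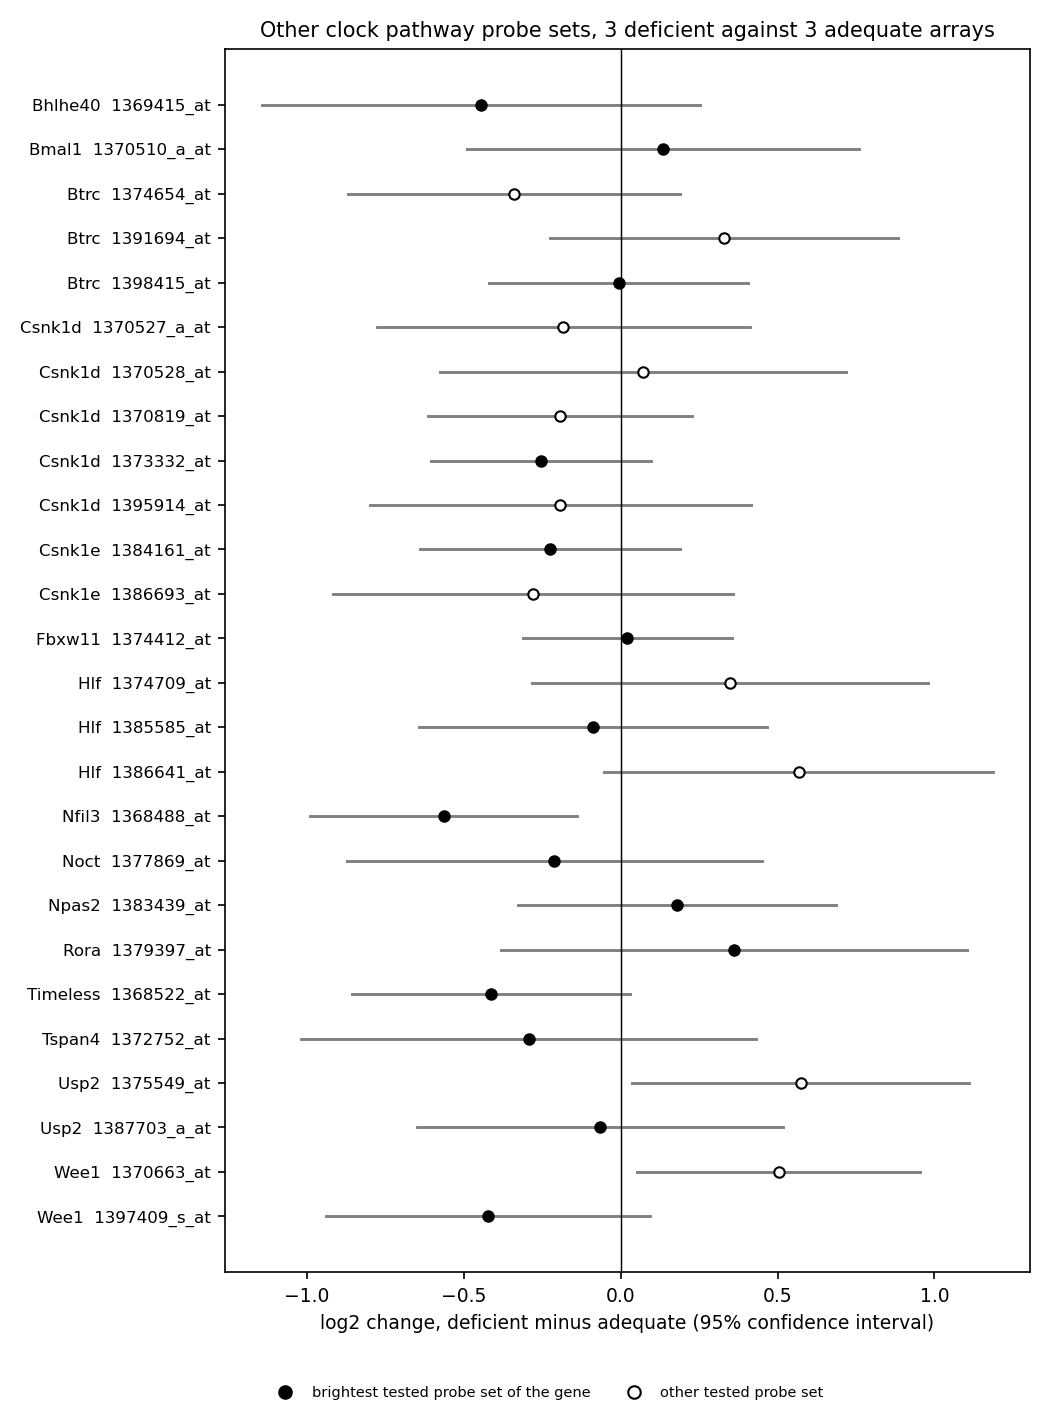
Change in log2 signal, deficient minus adequate, for the 26 tested probe sets of 15 further clock pathway genes, with 95% confidence intervals from limma (3 arrays a group). The interval of Nfil3 lies below 0 and those of 1 probe set each of Usp2 and Wee1 above it. The intervals of the brighter probe sets of Usp2 and Wee1 include 0.

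Per1 and Per2 also answer acute stimuli, and a list of 22 immediate early and glucocorticoid genes was read beside Per1. Of these, 20 had a tested probe set. By the brightest probe set of each, 12 had changes below 0 and 8 above, with a median change of -0.22. At an unadjusted p under 0.05, 5 genes were lower (25.0%) and 0 higher. By probe set, 6 of the 30 tested were lower (20%) and 0 higher. Lower calls made up 8.18% of all tested probe sets. None of the list passed the adjusted threshold. The list was chosen with earlier results of these data known, so these shares are descriptions and no excess was tested. The phosphatase gene Dusp1 read 10.94, 11.19 and 10.72 on the deficient arrays and 12.13, 12.40 and 11.48 on the adequate arrays, without overlap. Its dimmer tested probe set, 1368147_at, overlapped between the groups, with -0.58 ± 0.28 (SE) and an unadjusted p of 0.0658 by limma. Zfp36, which destabilises cytokine mRNAs, had -0.83 ± 0.23 (SE), the kinase Sik1, which acts downstream of light and cAMP on the clock of the brain in mouse, -0.62 ± 0.19, and Ier2 -0.46 ± 0.17. The fifth was the orphan receptor gene Nr4a1, at -0.51 ± 0.20 (SE), named after its value was seen. Of the 5, Dusp1 kept an unadjusted p under 0.05 under each of the 18 alternatives. Without adequate array 1, Ier2 was -0.31 and Nr4a1 -0.36, with unadjusted p of 0.141 and 0.143 by limma, and both were also above 0.05 without adequate array 2 or without deficient array 2. With the hybridisation controls as a covariate, Zfp36 (p 0.0751), Sik1 (p 0.0566), Ier2 and Nr4a1 were above 0.05. Of the list's glucocorticoid genes, most had changes above 0: Klf9 0.51 ± 0.24 (SE), Cebpd 0.20, Nr3c1 0.20, Fkbp5 0.17, Errfi1 0.068 and Sgk1 0.0059. Tsc22d3 was at -0.15 ± 0.15 (SE). These genes are named after their values were seen. The list's mean relative to the adequate mean was -0.11, -0.086 and -0.47 on the deficient arrays and 0.18, -0.071 and -0.11 on the adequate arrays. Per1, in the same unit, was at -0.28, 0.22 and -0.63 on the deficient arrays and -0.038, -0.46 and 0.50 on the adequate arrays. Both were lowest on deficient array 3, but Per1 was highest on adequate array 3 and the list on adequate array 1.

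The genes whose values over the 6 arrays were most like those of Dbp were Ntrk2, Tmem109 and LOC102547042, with Pearson's r between 0.993 and 0.998, and 95 of 13858 named probe sets were above 0.95. For Clock they were Atp6v0a2, Cul5 and Elf1, with r between 0.988 and 0.992, and 44 probe sets were above 0.95. These likenesses are descriptions over 6 points that share the scaling of the arrays and the pair of arrays that stands apart. For Ntrk2 the change was -0.29, for Tmem109 -0.35 and for Elf1 0.46, and none of the 6 genes passed the adjusted threshold.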

How the data were processed

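The authors' deposited values are linear signal intensities per probe set, made with MAS5 and Affymetrix Expression Console per the submitters' processing notes, without versions. MAS5 scales arrays to a common level: the 2% trimmed mean was 500.1 to 500.2 on each array, so differences in total RNA are removed. Detection calls and background settings are not stated in those notes, and dim signals vary strongly on the log scale.

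Of 31099 probe sets, 57 controls were set aside. Signals were log2 transformed without offset, and 18625 probe sets with a mean at or above the 40th percentile were fitted per probe set by the functions lmFit and eBayes (with a variance trend) of limma 3.58.1 under R 4.3.3. The p-values are two-sided and were adjusted over all of them by Benjamini-Hochberg. A gene was represented by its brightest tested probe set. Of the probe sets, 20826 have 1 symbol in the annotation, 436 have several and 9780 have none. By Entrez identifier, 20764 matched a GRCr8 gene table, and 0 symbols changed. Groups came from the sample titles. The fit was tested on simulated data. Figures were drawn with matplotlib 3.10.9.

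The members and lists were chosen with earlier results of these data known. All members were named. Of the other clock genes, Bmal1, Npas2, Nfil3, Hlf, Rora and the 5 others with the smallest unadjusted p were named, of the stimulus list the 4 smallest, and for Dbp and Clock the 3 genes most like each. Usp2, Nr4a1, a second probe set of Wee1 and the glucocorticoid genes of the stimulus list were added after their values were seen. Alternatives covered scaling, filter, offset, variance model, array weights, replicate block, each array left out, the arrays that stand apart and RNA quality. A pair of further arm comparisons, with Bmal1 added to Clock and with Dbp alone, were chosen after seeing the data.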

Additional observations from a re-analysis of the deposited data

How the results depend on the processing

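Dbp kept a lower value in the deficient group under each of the 17 alternatives that tested it, between -0.89 and -0.55, with unadjusted p from 0.00254 to 0.0454. It passed the adjusted threshold only with array weights (adjusted p 0.0321, range 0.0321 to 0.989), and the filter at the 60th percentile removed it. Clock 1390199_at, Per2 1368303_at, Nr1d2 1390430_at and both Tef probe sets kept their sign under every alternative run, but not their size. With single arrays left out they ranged from 0.13 to 0.33 (Clock), 0.21 to 0.36 (Per2), 0.17 to 0.67 (Nr1d2), 0.0067 to 0.42 (Tef 1390819_at) and 0.050 to 0.41 (Tef 1385374_at). The count of clock probe sets past the adjusted threshold was 1 with array weights and 0 under the 17 other alternatives. At an unadjusted p under 0.05 the count was 0 with the filter at the 60th percentile, 2 with the hybridisation controls or the beta-actin ratio as a covariate, 4 with deficient array 3 alone (Dbp, Per2 1368303_at and both tested Nr1d2 probe sets, in a fit where the lone array is assumed to vary like the adequate arrays), and 1 to 2 with single arrays left out, 2 being without deficient array 1. Over all probe sets, 3462 passed with array weights and 0 to 3614 with single arrays left out, 3614 being without deficient array 3. The cause was not tested. The difference between the arms was -0.53 to -0.24 with single arrays left out, -0.31 without Dbp, -0.38 with Clock and Bmal1 together and -0.996 for Dbp alone minus Clock.

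Replicate numbers are shared by the groups, but the deviations of same-numbered arrays correlated by 0.11, 0.15 and 0.0066, so the numbers were not taken as pairs. With the replicate block, 2 clock probe sets (Dbp and Nr1d2 1390430_at) had an unadjusted p under 0.05 and 0 passed the adjusted threshold.

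Signs turned for several probe sets. With single arrays left out the ranges were -0.0044 to 0.30 for Clock 1389456_at, -0.46 to 0.021 for Per1, -0.40 to 0.98 for Per2 1378560_at, -0.41 to 0.013 for Per3, -0.43 to 0.16 for Cry1, -0.36 to 0.031 for Cry2, -0.0047 to 0.69 for Nr1d1, -0.26 to 0.37 for Nr1d2 1370541_at, -0.074 to 0.36 for Bmal1, -0.20 to 0.13 for Hlf and -0.36 to 0.12 for Usp2 1387703_a_at. With deficient array 3 alone, Per3 was 0.24, Cry1 0.50, Cry2 0.058, Npas2 -0.15, Hlf 0.14, Wee1 0.14, Csnk1d 0.0023, Csnk1e 0.029 and Usp2 0.52. With the hybridisation covariate, Per3 was 0.14, Cry1 0.39, Nr1d1 -0.0035, Npas2 -0.13, Hlf 0.16, Wee1 0.090, Csnk1e 0.038 and Usp2 0.46. With the beta-actin covariate, Per3 was 0.0093, Cry1 0.10 and Usp2 0.20, and with array weights Nr1d2 1370541_at was -0.023. Of the 248 values of tested members under the alternatives, 228 kept their sign and their side of the threshold.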
